A study of Mus musculus with 9 samples.

Results

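A set of 10 genes of prostaglandin and phospholipase A2 biology was followed in the epidermis of mouse ears, chosen by their symbols from the 52550 genes of the deposited count table. All 10 were listed once and passed the filter on low counts in every comparison. They are the phospholipase A2 genes Pla2g4a, Pla2g4d, Pla2g4e and Pla2g2f, the cyclooxygenase genes Ptgs1 and Ptgs2, the prostaglandin E2 synthase gene Ptges, the prostaglandin breakdown gene Hpgd, and the prostaglandin E2 receptor genes Ptger3 and Ptger4.

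RNA sequencing was performed on intact epidermal ear sheets of wild type C57BL/6 mice (C57BL/6J in the methods) aged 8 weeks, stated to be male, in 3 groups of 3 libraries. The control group (VAS + H2O) had Vaseline on the ears for 5 days and 200 μl of ddH2O by gavage for 10 days. The model group (IMQ + H2O) had imiquimod, an agonist of Toll-like receptor 7 that gives a psoriasis-like dermatitis, in place of Vaseline, with the same gavage. The XYF group (IMQ + XYF) had imiquimod and a gavage of the Xiao-Yin-Fang (XYF) decoction, a Traditional Chinese Medicine formula, at 23.3 mg/g. There was no group with XYF and Vaseline. The sheets were stated to come from 2 mice without saying whether per library, so p-values measure the spread between libraries, which may in part be technical.

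Prostaglandin synthesis starts when a phospholipase A2 frees arachidonic acid from membrane lipids. A cyclooxygenase turns arachidonic acid into prostaglandin H2, and terminal synthases turn that into prostaglandin E2, prostacyclin and the other prostanoids, which act on receptors of nearby cells until they are oxidized. In skin, prostaglandin E2 takes part in inflammation, blood flow and the growth of keratinocytes, and the epidermis also uses phospholipases A2 for the lipids of its barrier.

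Libraries held 30298275 to 64771160 counts on genes, and a count of 3, taken as the floor of detection for counting error, was worth 0.0463 to 0.099 CPM (counts per 1000000 counts of the library, scaled by TMM factors in the values below). The 10 keratinocyte markers summed to 48500 CPM or more in every library. Neutrophil markers, with a sum of 10.7 to 12.7 CPM in VAS + H2O, reached 49.4 to 140 in IMQ + H2O and 62.5 to 88 in IMQ + XYF, and Ly6g, Retnlg and Stfa2l1 were listed at 0 in VAS + H2O. Dermal fibroblast markers summed to 644 CPM in VAS + H2O replicate 2 and 45.3 to 205 in all other libraries, and cartilage markers to 194 to 464 in VAS + H2O, 38.9 to 82.9 in IMQ + H2O and 141 to 205 in IMQ + XYF. In RNA of whole sheets, a change in the number of cells of a type and a change in RNA per cell cannot be told apart.

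Imiquimod raised the prostaglandin E2 synthase gene Ptges 3.98-fold and the cytosolic phospholipase gene Pla2g4e 4.28-fold, and no gene of the 10 was called lower. A gene counted as called when its adjusted p did not exceed 0.05 and its log2 fold change reached 1 in either direction (edgeR's quasi-likelihood test with Benjamini-Hochberg adjustment over 18009 genes). By that rule 2 of 10 were called, where 7.68% of all genes tested were called and 3.64% were called higher. At the adjusted p alone, Hpgd joined them, so 3 of 10 passed, against 22.1% of all genes, and DESeq2 called 3 of 10, with Pla2g4d as the third, against 8.66%. In 6 of 10, Ptgs2, Ptges, Hpgd, Ptger3, Pla2g4d and Pla2g4e, every IMQ + H2O library was above every VAS + H2O library, as in 23.4% of all genes. The median log2 fold change was 0.87 over the 10 genes and -0.03 over all genes. With a score of dermal fibroblast and cartilage markers as a covariate, 0 of 10 and none of the 18009 genes were called, while the log2 fold changes were 1.93 for Ptges and 2.44 for Pla2g4e, against 1.99 and 2.10 without it. Since that score differed between the groups, it and imiquimod cannot be told apart in that fit.

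With XYF added to imiquimod, 0 of 10 genes were called against IMQ + H2O by edgeR or by DESeq2, and 1 of 10, Hpgd, had an unadjusted p under 0.05. Of all genes, 0.0281% were called in this comparison by edgeR, 0.646% by DESeq2, and 5.43% had an unadjusted p under 0.05. The median log2 fold change of the 10 genes was -0.17, against 0 for all genes. Against VAS + H2O, the IMQ + XYF group had higher Ptges, Pla2g4e and Ptgs2, which is 3 of 10 called where 7.64% of all genes were called and 4.58% called higher. In 4 of 10, these and Hpgd, every IMQ + XYF library was above every control, as in 25.1% of all genes.

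**Figure D1:**
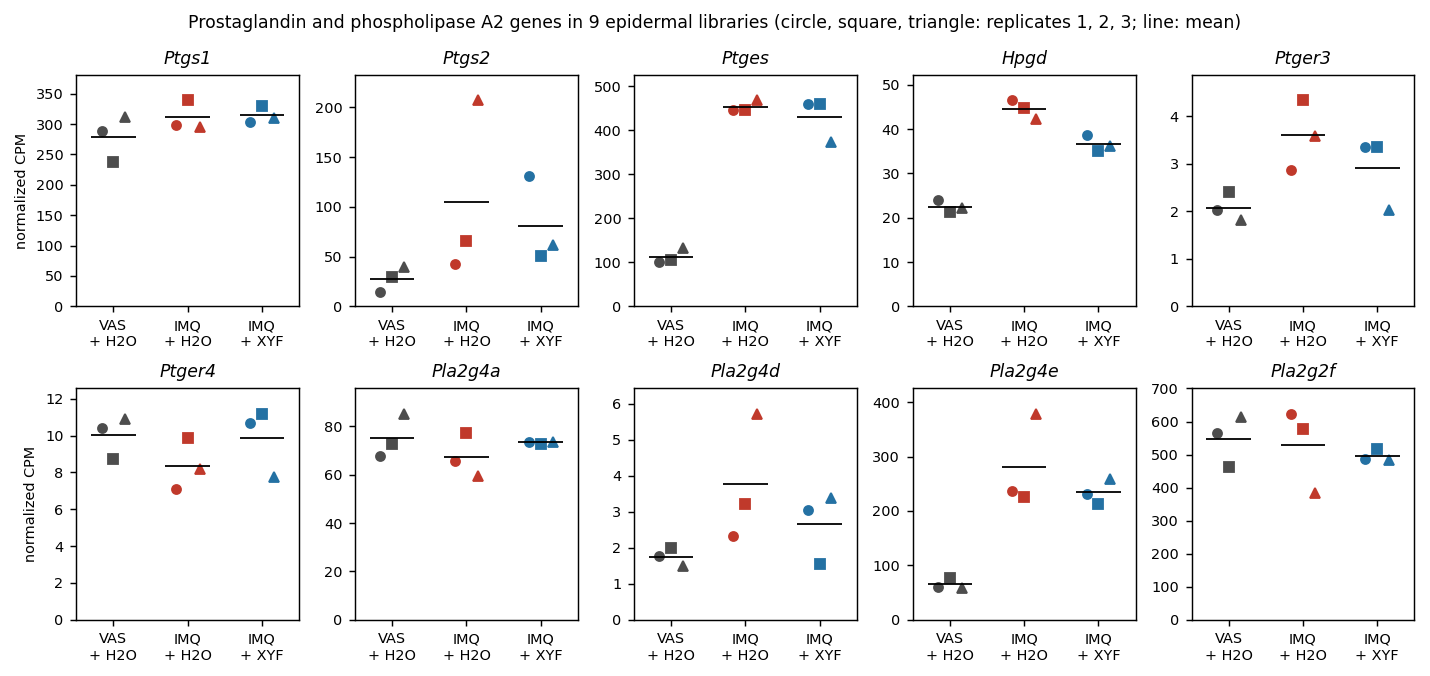
Normalized CPM (vertical axes, each from 0) of the 10 genes in the 3 libraries of each group, with replicates 1, 2 and 3 as circle, square and triangle and the group mean as a line. Ptges and Pla2g4e stand apart from VAS + H2O in all 6 imiquimod libraries, while 1 library in each imiquimod group carries the highest Ptgs2.

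Pla2g4e (chr2:120166412-120245335 on GRCm38, minus strand) encodes cytosolic phospholipase A2 epsilon, which also transfers acyl chains to make N-acyl phosphatidylethanolamines. It measured 61.0, 75.8 and 57.6 CPM in VAS + H2O replicates 1, 2 and 3, 236, 226 and 379 CPM in IMQ + H2O, and 232, 213 and 259 CPM in IMQ + XYF. All 6 imiquimod libraries were above all controls, and IMQ + H2O replicate 3 was the highest. The log2 fold change from VAS + H2O to IMQ + H2O was 2.10 (SE 0.231, adjusted p = 0.00575 by edgeR), and the call held with each library left out in turn, at 1.82 to 2.27. From VAS + H2O to IMQ + XYF it was 1.86 (SE 0.128, adjusted p = 0.000589 by edgeR). Between the imiquimod groups the difference was -0.25, with a 95% interval of -0.74 to 0.24 on the log2 scale.

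Pla2g4d (chr2:120265595-120289197, minus strand) lies 20.3 kb from Pla2g4e on the same strand and encodes cytosolic phospholipase A2 delta, known from psoriatic skin. It was among the lowest of the genes, at 1.76, 2 and 1.49 CPM in VAS + H2O, 2.32, 3.22 and 5.72 CPM in IMQ + H2O, and 3.05, 1.54 and 3.39 CPM in IMQ + XYF, from 50 to 247 counts a library. The IMQ + H2O libraries were all above the controls, and the IMQ + XYF libraries overlapped with both other groups. Under imiquimod its log2 fold change was 1.09 (SE 0.358) and missed the threshold in edgeR (adjusted p = 0.071) while DESeq2 called it (adjusted p = 0.03). Without IMQ + H2O replicate 3 it was 0.65, and without IMQ + H2O replicate 1 it was 1.38 and called by edgeR (adjusted p = 0.0472).

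Pla2g4a (chr1:149829618-149961290, minus strand), the cytosolic phospholipase A2 alpha that is selective for arachidonic acid, measured 67.9 to 85.3 CPM in VAS + H2O, 59.3 to 77.2 CPM in IMQ + H2O and 72.8 to 73.7 CPM in IMQ + XYF. Its groups overlapped, and the log2 fold change under imiquimod was -0.17 with a 95% interval of -0.48 to 0.13. Pla2g2f (chr4:138750533-138757626, minus strand) encodes a secreted phospholipase A2 of suprabasal keratinocytes. It had 462 to 615 CPM in VAS + H2O, 383 to 624 CPM in IMQ + H2O and 484 to 516 CPM in IMQ + XYF, with the lowest value in IMQ + H2O replicate 3. Under imiquimod its log2 fold change was -0.06, with a 95% interval of -0.53 to 0.40, so a change of more than 1 in either direction lay outside the intervals of both genes.

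Ptgs2 (chr1:150100031-150108227, plus strand) encodes the inducible cyclooxygenase 2, and lies 138.7 kb from Pla2g4a on the opposite strand with no protein-coding gene between them. Its promoter is shown with that of Ptges, since these genes are the inducible enzymes of the prostaglandin E2 branch and were both higher in all 6 imiquimod libraries. Each run is the 250 bases before the annotated start, 5′ to 3′ in the direction of the gene (RefSeq on GRCm38.p6), with matches to the motifs named below in capitals. For Ptges the RefSeq start lies inside the longer GENCODE span given for the gene below.
Ptgs2, chr1:150099781-150100030, plus strand: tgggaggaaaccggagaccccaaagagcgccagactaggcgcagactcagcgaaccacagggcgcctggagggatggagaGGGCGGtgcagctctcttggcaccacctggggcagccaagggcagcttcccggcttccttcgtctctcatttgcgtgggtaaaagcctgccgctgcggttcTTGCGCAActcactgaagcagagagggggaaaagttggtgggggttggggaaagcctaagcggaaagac
Ptges, chr2:30903298-30903547, minus strand: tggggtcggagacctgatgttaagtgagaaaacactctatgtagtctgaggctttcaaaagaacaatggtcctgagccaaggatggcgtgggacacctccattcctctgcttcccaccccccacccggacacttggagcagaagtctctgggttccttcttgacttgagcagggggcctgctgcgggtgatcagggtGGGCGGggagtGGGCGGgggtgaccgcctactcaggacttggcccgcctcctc

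A set of 7 motifs, chosen after the sequences were seen, was searched on both strands from 250 bases before to 50 bases after the start, and all 10 genes had a RefSeq promoter. The Ptgs2 window held the C/EBP palindrome TTGCGCAA from 69 bases before the start, which 0.183% of 32851 promoters hold, and the GC box GGGCGG from 170 bases before it, which 35.7% hold. It also held the cAMP response element core TGACGT from base 13 after the start (7.51% of promoters) and, overlapping its last bases, the E-box CACGTG from base 17 (7.15%). The Ptges window held the GC box from 53 and from 42 bases before the start. The AP-1 site TGANTCA (7.81%) and the NF-kB site, GGG and TTTCC with any 2 bases between them (1.63%), were matched in none of the 10 genes' windows, and the TATA box TATAAA (13.6%) was in those of Pla2g4d, Hpgd and the second start of Pla2g4a. These matches describe letters and not bound sites.

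Ptgs2 measured 14.7, 29.5 and 39.5 CPM in VAS + H2O replicates 1, 2 and 3. It measured 42.6, 65.4 and 207 CPM in IMQ + H2O, and 131, 50.6 and 62.1 CPM in IMQ + XYF. Every imiquimod library was above every control, but IMQ + H2O replicate 1 lay close to VAS + H2O replicate 3, and 1 library in each imiquimod group was far above the other two. The log2 fold change under imiquimod was 1.91 (SE 0.639, 95% interval 0.39 to 3.42) and missed the threshold (adjusted p = 0.0748 by edgeR and 0.0637 by DESeq2). Without IMQ + H2O replicate 3 it was 0.95.

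In IMQ + XYF against VAS + H2O, Ptgs2 was called at a log2 fold change of 1.55 (SE 0.465, adjusted p = 0.0474 by edgeR). That call was lost in 5 of 6 fits that left out 1 library (VAS + H2O replicates 1, 2 and 3, IMQ + XYF replicates 1 and 3), with fold changes of 1.04 to 1.90 over the 6 and 1.04 without IMQ + XYF replicate 1. Between the imiquimod groups the difference was -0.37 with a 95% interval of -1.86 to 1.12, and without IMQ + H2O replicate 3 its sign turned, to 0.59. The macrophage markers summed to 24.1 CPM in IMQ + H2O replicate 3 and 18.7 CPM in IMQ + XYF replicate 1, the libraries with the highest Ptgs2, and to 4.79 to 11.7 CPM in the other 7. Neutrophil markers were also highest in those libraries, at 140 and 88 CPM. In IMQ + H2O against VAS + H2O, 1 of 6 macrophage markers and 1 of 5 neutrophil markers were called higher. The part of these cells in the Ptgs2 level was not tested.

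**Figure D2:**
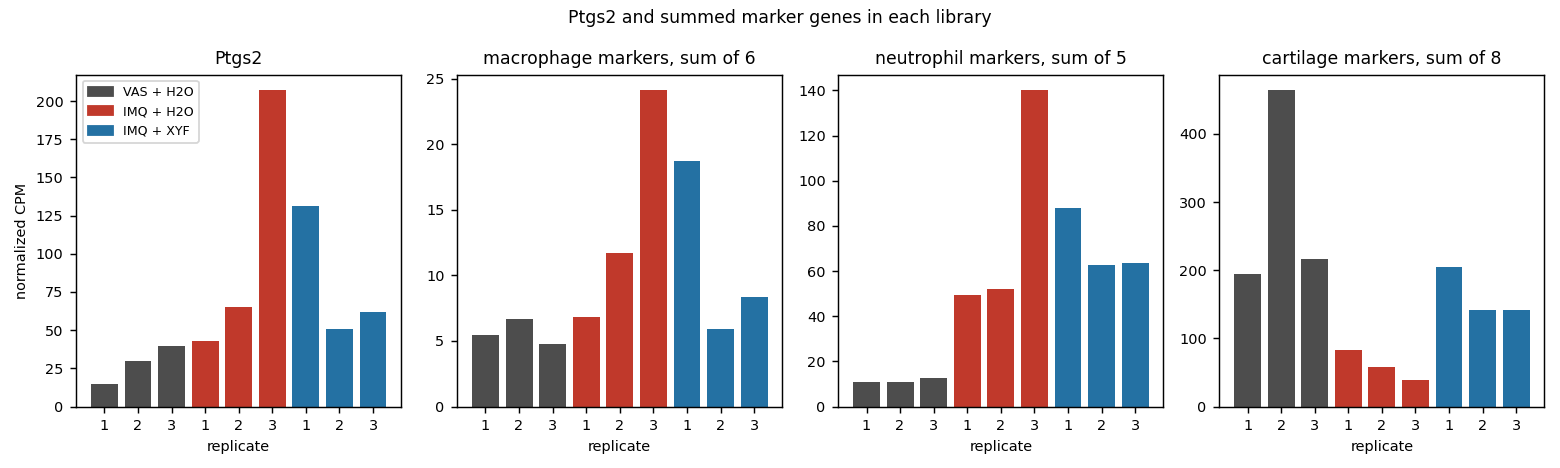
Bars give the normalized CPM of Ptgs2 and the summed normalized CPM of macrophage, neutrophil and cartilage markers in each of the 9 libraries, with the replicate number on the horizontal axis and each vertical axis starting at 0. IMQ + H2O replicate 3 (207 CPM of Ptgs2) and IMQ + XYF replicate 1 (131 CPM) were also highest for macrophage and neutrophil markers.

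Ptgs1 (chr2:36230426-36252272, plus strand) encodes the constitutive cyclooxygenase 1. It ranged from 238 to 311 CPM in VAS + H2O, 295 to 339 CPM in IMQ + H2O and 304 to 329 CPM in IMQ + XYF, and the groups overlapped. The log2 fold change under imiquimod was 0.15 with a 95% interval of -0.13 to 0.42, and with XYF added the difference was 0.02 with an interval of -0.17 to 0.21. Its exons share 148 bases with Gm43621 on the opposite strand, so a small part of its counts may be uncertain.

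The ratio of Ptgs2 to Ptgs1 counts within a library needs no scaling between libraries. It was 0.051, 0.124 and 0.127 in VAS + H2O, 0.142, 0.193 and 0.702 in IMQ + H2O, and 0.429, 0.154 and 0.2 in IMQ + XYF. Ptgs1 counts exceeded Ptgs2 counts in all 9 libraries, and both imiquimod groups were above the controls without overlap. The mean log2 ratio differed by 1.53 under imiquimod and by 1.35 between IMQ + XYF and VAS + H2O, each at p = 0.1 in an exact two-sided permutation test (adjusted p = 0.15 over 9 tests of ratios), the smallest p that 3 against 3 libraries allow. Between the imiquimod groups it differed by -0.18 (exact permutation p = 0.9, adjusted p = 0.9).

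Ptges (chr2:30889471-30929863, minus strand) encodes microsomal prostaglandin E synthase, which is coupled to cyclooxygenase 2 in inflamed tissue. It measured 100, 105 and 133 CPM in VAS + H2O replicates 1, 2 and 3, 445, 446 and 468 CPM in IMQ + H2O, and 459, 459 and 374 CPM in IMQ + XYF. The imiquimod libraries were all far above the controls, and those of IMQ + H2O varied least, with a coefficient of variation of 2.88%. Under imiquimod it rose by a log2 fold change of 1.99 (SE 0.121, adjusted p = 0.00171 by edgeR), and the call held with each library left out in turn, at 1.91 to 2.16. In IMQ + XYF against VAS + H2O it was 1.93 (SE 0.139, adjusted p = 0.000634 by edgeR). The imiquimod groups differed by -0.07, with a 95% interval of -0.30 to 0.17.

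Hpgd (chr8:56294585-56321043, plus strand) encodes 15-hydroxyprostaglandin dehydrogenase, the enzyme that starts the breakdown of prostaglandin E2. It measured 24.0, 21.4 and 22.1 CPM in VAS + H2O, 46.5, 44.7 and 42.2 CPM in IMQ + H2O, and 38.6, 35.1 and 36.1 CPM in IMQ + XYF. The 3 groups did not overlap, with IMQ + XYF between the other two. Under imiquimod the log2 fold change was 0.97 (SE 0.0895, adjusted p = 0.00395 by edgeR), which passed on the adjusted p and lay just under the threshold of 1. It was called in 3 of 6 fits that left out 1 library (VAS + H2O replicate 1, IMQ + H2O replicate 2 or 3), at 0.94 to 1.01 over the 6. In IMQ + XYF against VAS + H2O it was 0.70 (SE 0.0831, adjusted p = 0.00211 by edgeR).

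Between the imiquimod groups Hpgd differed by -0.28 on the log2 scale, with a 95% interval of -0.47 to -0.08. That is 0.826 times the IMQ + H2O level, at an unadjusted p of 0.0113 and an adjusted p of 0.639 by edgeR. It was the only gene of the 10 whose imiquimod groups did not overlap, so 1 of 10, where 10.7% of all genes did not overlap in either direction. Lower without overlap in the same comparison were 4.67% of all genes. Leaving out each library in turn gave -0.32 to -0.25.

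The gene of synthesis and the gene of breakdown thus both passed on the adjusted p under imiquimod, with the larger fold change in Ptges. Ptges counts exceeded Hpgd counts 4.18, 4.92 and 6.02 times in VAS + H2O, 9.56, 9.97 and 11.1 times in IMQ + H2O, and 11.9, 13.1 and 10.4 times in IMQ + XYF. The imiquimod groups were above the controls without overlap and overlapped with each other. The log2 ratio differed by 1.03 under imiquimod (exact permutation p = 0.1, adjusted p = 0.15) and by 0.20 when XYF was added (exact permutation p = 0.2, adjusted p = 0.225). IMQ + XYF and VAS + H2O differed by 1.23 (exact permutation p = 0.1, adjusted p = 0.15).

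**Figure D3:**
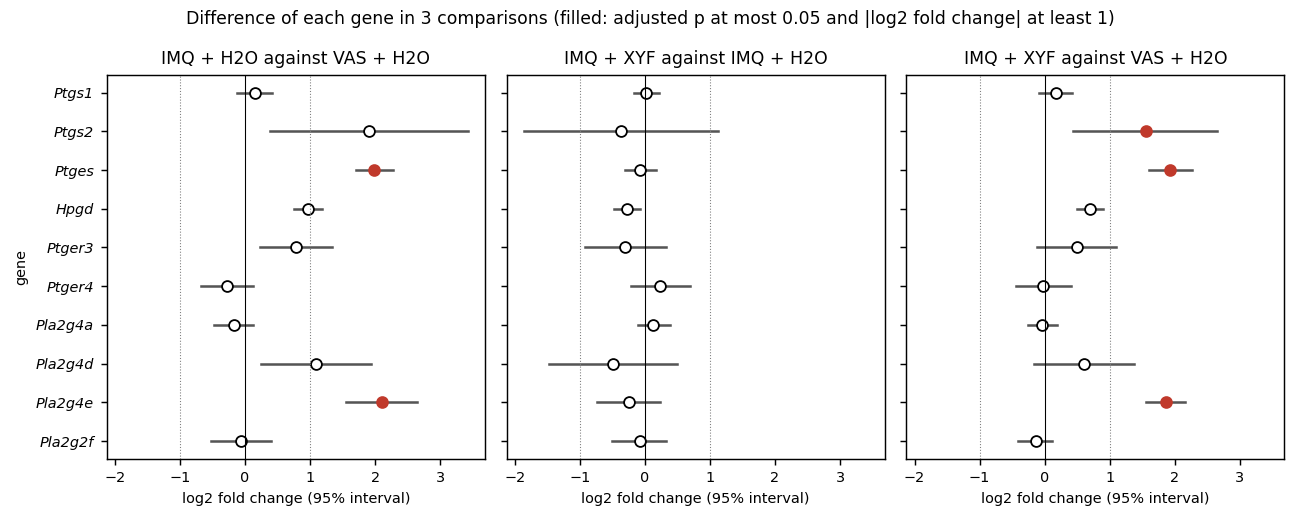
Log2 fold change (point) with its 95% interval (line) of each gene in the 3 comparisons, filled where called, with dotted lines at -1 and 1. In the middle panel no point is filled, and the interval of Ptgs2 runs from -1.86 to 1.12 while that of Ptges runs from -0.30 to 0.17.

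The prostaglandin E2 receptors were expressed at low levels. Ptger3 (chr3:157566892-157645888, plus strand), the EP3 receptor that mostly lowers cyclic AMP, measured 2.03, 2.40 and 1.81 CPM in VAS + H2O, 2.87, 4.34 and 3.59 CPM in IMQ + H2O, and 3.36, 3.36 and 2.02 CPM in IMQ + XYF, from 63 to 214 counts a library. Its IMQ + H2O libraries were all above the controls, and IMQ + XYF overlapped with both. The log2 fold change under imiquimod was 0.78 (SE 0.234, adjusted p = 0.0548 by edgeR), which missed both thresholds.

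Ptger4 (chr15:5206661-5244187, minus strand), the EP4 receptor that raises cyclic AMP, measured 10.4, 8.74 and 10.9 CPM in VAS + H2O, 7.08, 9.86 and 8.17 CPM in IMQ + H2O, and 10.7, 11.2 and 7.75 CPM in IMQ + XYF. The groups overlapped, and the log2 fold change under imiquimod was -0.27 with a 95% interval of -0.67 to 0.13. Its exons share 1015 bases with the pseudogene Gm15937 and 82 with Ttc33, both on the opposite strand. Gm15937 had 2 to 18 counts a library and Ttc33 221 to 626, against 205 to 682 for Ptger4, and since the strand setting of the counting is unknown, reads in the shared bases may be split between these genes.

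The ratio of Ptger4 to Ptger3 counts was 5.11, 3.65 and 6.02 in VAS + H2O, 2.47, 2.27 and 2.28 in IMQ + H2O, and 3.19, 3.32 and 3.83 in IMQ + XYF. The IMQ + H2O libraries were below all others, and the IMQ + XYF libraries overlapped with the controls. On the log2 scale the ratio differed by -1.04 under imiquimod (exact permutation p = 0.1, adjusted p = 0.15) and by 0.55 when XYF was added (exact permutation p = 0.1, adjusted p = 0.15), both without overlap and at the smallest p the design allows, which cannot pass 0.05. IMQ + XYF and VAS + H2O differed by -0.49 (exact permutation p = 0.2, adjusted p = 0.225). Neither gene on its own was called in any comparison.

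**Figure D4:**
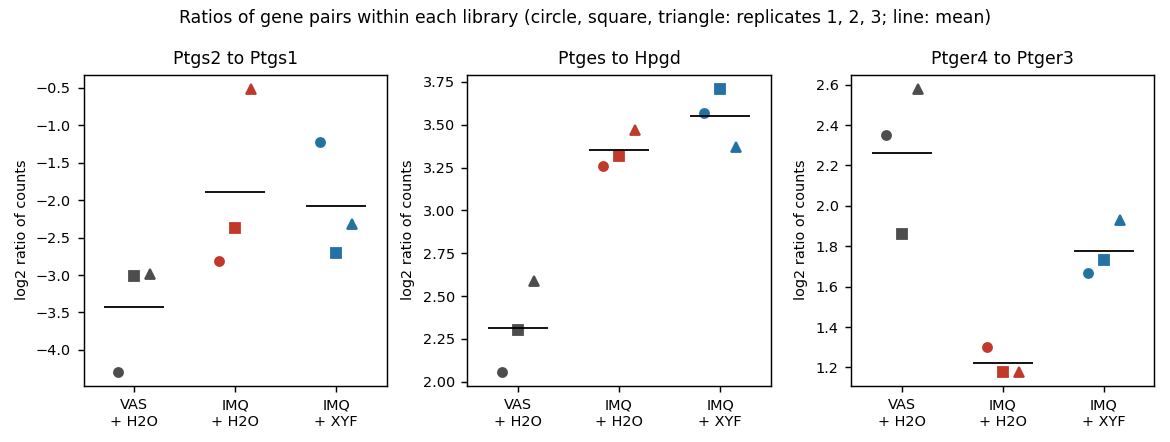
Log2 ratio of counts within each library for 3 gene pairs, with replicates 1, 2 and 3 as circle, square and triangle and the group mean as a line. The Ptgs2 to Ptgs1 and Ptges to Hpgd ratios of both imiquimod groups lie above VAS + H2O, while the Ptger4 to Ptger3 ratio is lowest in IMQ + H2O (2.27 to 2.47 on the linear scale).

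Set per length of exon sequence, levels ran over a wide range. In VAS + H2O, Pla2g2f had 222 CPM per kb, followed by Ptgs1 at 71.8 and Ptges at 28.7, each above the next without overlap. Hpgd (13.4), Pla2g4a (11.8), Pla2g4e (9.31) and Ptgs2 (6.09) came next. Among these, genes next to each other in the order overlapped, and genes further apart did not. Below them were Ptger4 at 1.5 and Pla2g4d and Ptger3 at 0.475 and 0.365 CPM per kb. Pla2g2f thus had the highest level per length among the 10 in controls.

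In IMQ + H2O, Pla2g2f was still first at 214 CPM per kb, but Ptges at 115 now stood above Ptgs1 at 80.1, and Pla2g4e at 40.2 above Hpgd at 26.4, all without overlap. Ptgs2 (23) followed, with libraries that overlapped with those of Hpgd and of Pla2g4a (10.5). Its highest library, at 45.3 CPM per kb, also overlapped with those of Pla2g4e, which began at 32.4. The order in IMQ + XYF was the one of IMQ + H2O, with 110 CPM per kb for Ptges, 80.9 for Ptgs1, 33.7 for Pla2g4e and 21.7 for Hpgd.

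Of 50 other genes of the pathway, in 5 lists written by hand, 41 were tested under imiquimod, and 5 were called higher and 4 lower, 9 of 41 where 7.68% of all genes were called and 3.64% called higher. Their median log2 fold change was 0.10, against -0.03 over all genes. Among 15 genes tested of the phospholipase A2 list, Pla2g4b, Pla2g4c and Pla2g2d rose, and Pla2g5, Pla2g16 and the receptor gene Pla2r1 fell. Among 11 genes of the list of other prostanoid synthases, Akr1b8 rose and Ptgis fell, and among 7 genes of the leukotriene branch Ltb4r1 rose. None of the 3 other prostanoid receptor genes tested and none of the 5 genes of transport and breakdown were called by edgeR. Ptgfr, of the receptor list, had a log2 fold change of -1.68 (adjusted p = 0.0617 by edgeR). DESeq2 called Ptgfr lower (-1.67, adjusted p = 0.00459 by DESeq2). It called 10 of the pathway genes under imiquimod, where it called 8.66% of all genes.

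Pla2g4b, cytosolic phospholipase A2 beta, measured 8.12, 2.64 and 4.42 CPM in VAS + H2O and 29.2 to 43.1 CPM in IMQ + H2O, a log2 fold change of 2.84 (SE 0.395, adjusted p = 0.00864 by edgeR). Pla2g2d, a secreted phospholipase known from dendritic cells and macrophages, rose by 2.30 (SE 0.311, adjusted p = 0.0081 by edgeR) from a mean of 0.41 CPM, and Pla2g4c by 1.08 (adjusted p = 0.0405 by edgeR) from 1.01 CPM, the latter with no call in any of 6 fits that left out 1 library. In IMQ + H2O replicates 1, 2 and 3 Pla2g2d measured 1.52, 1.98 and 2.66 CPM. The macrophage markers summed to 6.81, 11.7 and 24.1 CPM there, from 4.79 to 6.65 CPM in VAS + H2O. In IMQ + XYF replicates 1, 2 and 3 the order was not shared. Pla2g2d measured 2.23, 2.44 and 2.62 CPM, and the macrophage markers summed to 18.7, 5.89 and 8.38 CPM. Of the 6 macrophage markers, 1 was called higher in IMQ + H2O against VAS + H2O. The part of macrophages in the Pla2g2d change was not tested. Pla2g4f, another cytosolic phospholipase, had 157 to 241 CPM in VAS + H2O and 244 to 299 CPM in IMQ + H2O, without overlap and not called (log2 fold change 0.52, adjusted p = 0.0703 by edgeR).

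Akr1b8, an aldo-keto reductase that acts on carbonyl compounds, was put in the synthase list by hand, and its part in prostanoid synthesis was not tested. It measured 6.31 to 10.4 CPM in VAS + H2O and 32.8, 39.6 and 82.7 CPM in IMQ + H2O, a log2 fold change of 2.58 (SE 0.385, adjusted p = 0.00985 by edgeR). Ltb4r1, the high-affinity receptor of leukotriene B4 carried by neutrophils, rose by 1.10 (SE 0.177, adjusted p = 0.0113 by edgeR), from 15.8 to 17.2 CPM in VAS + H2O to 30.1, 31.1 and 45.9 CPM in IMQ + H2O. The sum of the 5 neutrophil markers went from at most 12.7 CPM in VAS + H2O to at least 49.4 CPM in IMQ + H2O. Both Ltb4r1 and this sum were highest in IMQ + H2O replicate 3. In IMQ + XYF replicates 1, 2 and 3 the sum was 88, 62.5 and 63.5 CPM, and Ltb4r1 ran only from 29.9 to 32 CPM. Of these 5 markers, 1 was called higher under imiquimod, so the sum does not show that all 5 rose. The part of neutrophils in the change of Ltb4r1 was not tested.

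Of the genes that fell, Pla2g16, a phospholipase known from adipose tissue (log2 fold change -1.37, SE 0.168, adjusted p = 0.00704 by edgeR), was called in all 6 fits that left out 1 library, Pla2g5, a secreted phospholipase (-1.51, adjusted p = 0.0202 by edgeR), in 4 of 6, and Pla2r1, a receptor that binds secreted phospholipases (-1.35, adjusted p = 0.0257 by edgeR), in 1 of 6. Ptgis, prostacyclin synthase, measured 5.92, 16.4 and 4.73 CPM in VAS + H2O and 3.18, 1.77 and 1.88 CPM in IMQ + H2O, a log2 fold change of -2.01 (SE 0.528, adjusted p = 0.0379 by edgeR) that was called in 1 of 6 such fits. Its highest value was in VAS + H2O replicate 2, the library with the most dermal fibroblast and cartilage marker RNA, as were those of Pla2g5 (23.7 CPM) and Pla2r1 (3.22 CPM). Pla2g5 measured 18.3, 23.7 and 16.2 CPM in VAS + H2O, 8.4, 8.43 and 3.91 CPM in IMQ + H2O, and 16, 10.5 and 11.6 CPM in IMQ + XYF. Summed cartilage markers ran 194, 464 and 216 CPM, 82.9, 57.7 and 38.9 CPM, and 205, 141 and 141 CPM in the same libraries, with 7 of 8 called lower under imiquimod. The part of these tissues in the differences of Ptgis, Pla2g5 and Pla2r1 was not tested. Without that library 5 of the pathway genes were called in place of 9, and the same number without VAS + H2O replicate 1 or IMQ + H2O replicate 3.

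With XYF added to imiquimod, 0 of 42 pathway genes tested were called by edgeR, with 2, Ptgis and Pla2g5, at an unadjusted p under 0.05, and DESeq2 called 1. Over all genes the shares were 0.0281%, 5.43% and 0.646%. The gene called by DESeq2 was Ptgis, which measured 7.59, 5.74 and 3.73 CPM in IMQ + XYF, above the 3.18 CPM of the highest IMQ + H2O library (log2 fold change 1.34, adjusted p = 0.524 by edgeR and 0.0278 by DESeq2). The summed cartilage markers of the imiquimod groups did not overlap either and were higher with XYF, with 2 of 8 called. The summed dermal fibroblast markers were likewise higher with XYF and did not overlap, with 0 of 7 called. Pla2g5 was also higher with XYF without overlap (log2 fold change 0.89, unadjusted p = 0.0272 and adjusted p = 0.799 by edgeR). The part of these tissues in either difference was not tested. Against VAS + H2O, IMQ + XYF had Pla2g4b (2.64), Pla2g4c (1.59), Pla2g2d (2.55) and Akr1b8 (2.5) higher and Pla2g16 (-1.04) and Pla2r1 (-1.01) lower on the log2 scale, 6 of 41 tested at adjusted p from 0.000997 to 0.0469 by edgeR, where 7.64% of all genes were called. With 1 library left out, the call of Pla2g16 held in 4 of 6 fits and that of Pla2r1 in 1 of 6, and the 4 higher genes were called in all 6.

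**Figure D5:**
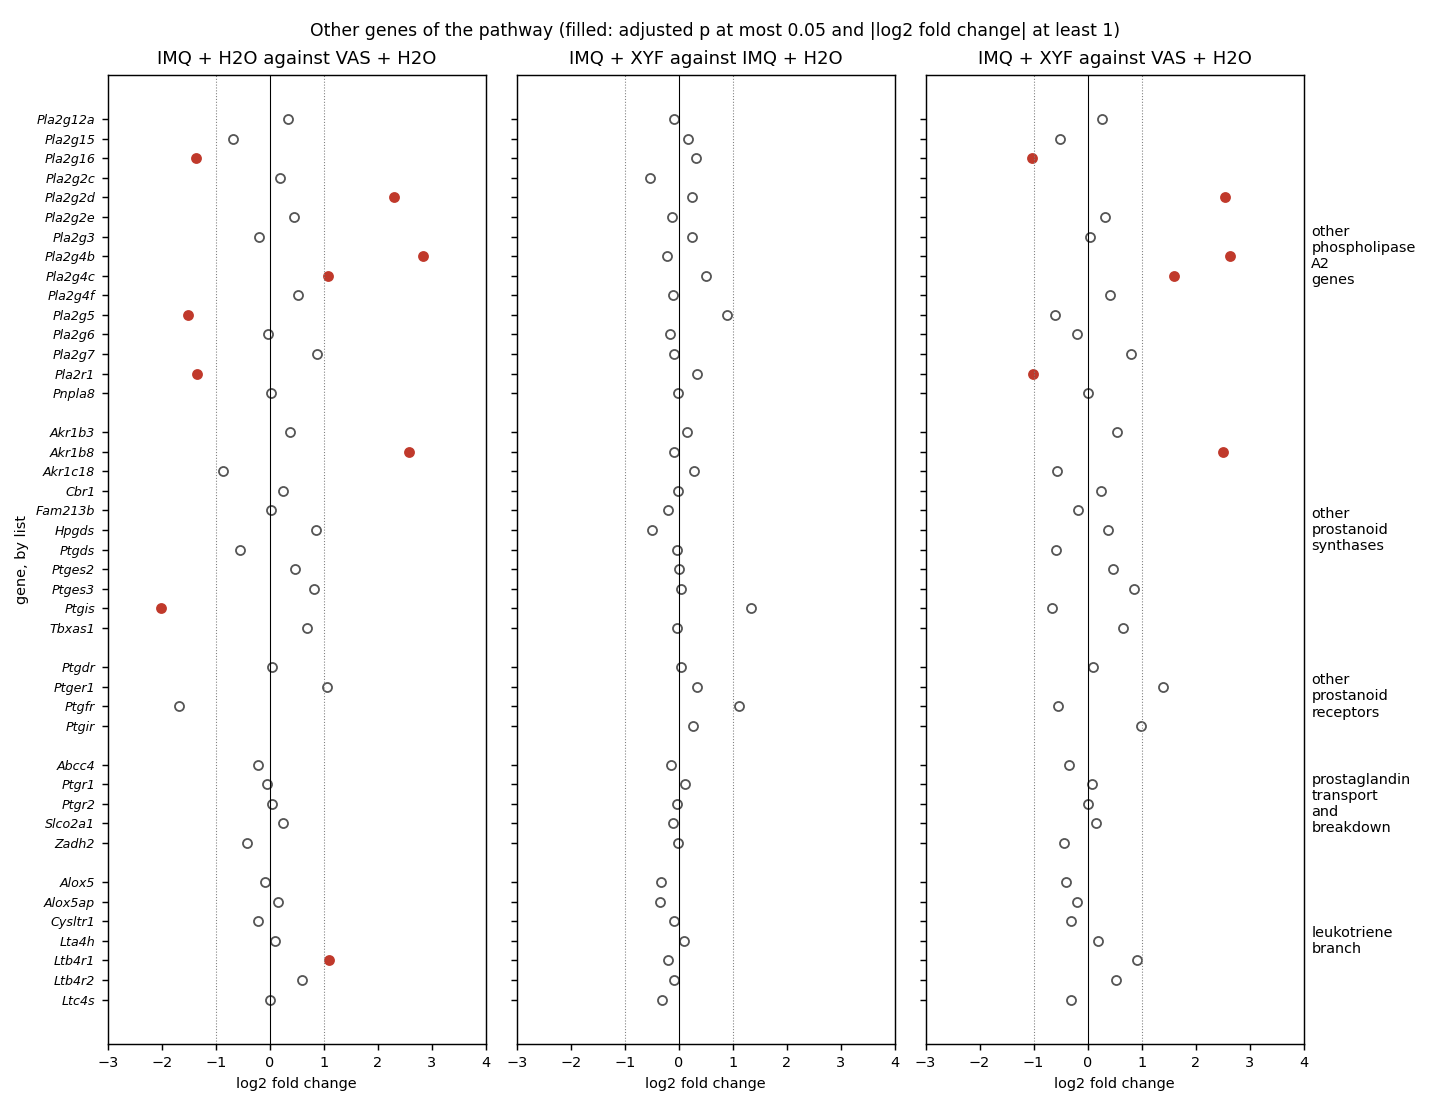
Log2 fold change of each tested gene of the 5 pathway lists (rows, grouped by list as named at the right) in the 3 comparisons, filled where called, with dotted lines at -1 and 1. Under imiquimod 5 points are filled to the right and 4 to the left, and with XYF added none is filled.

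Genes whose levels ran most like those of the called members over the 9 libraries were found by the root mean square difference of centred log2 CPM among 14918 genes. For Pla2g4e they were Tpm2, a tropomyosin, at 0.11 and Smox, spermine oxidase, at 0.14. For Ptges they were Slc25a48, a mitochondrial carrier, at 0.16 and Fam162a at 0.18. The nearest to Ptgs2 were Bcl2a1b, a survival gene of the Bcl2 family with near-identical copies, at 0.26 and AC133083.2 at 0.37, both at means of 1.63 CPM or less in every group and therefore less certain. These are descriptions of likeness over libraries that share their groups.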

How the data were processed

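Epidermal RNA was analysed in 9 libraries, grouped by their labels. The authors prepared TruSeq libraries, aligned reads with STAR (version 2.5 in the submitters' processing notes) to GRCm38, annotated by Ensembl release 90, and deposited whole-number counts per gene without normalization. The counting tool and its strand setting are not given in the sources used here. The dermal libraries were not analysed here.

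Each pair of groups was fitted on its 6 libraries with R 4.3.3 and edgeR 4.0.16 (TMM, filterByExpr defaults, glmQLFit and glmQLFTest), with Benjamini-Hochberg adjustment over all genes tested. A call needed an adjusted p no higher than 0.05 and a log2 fold change of 1 or more in either direction. CPM used TMM factors over the 18492 genes that passed the filter in all 9 libraries. Ratios of counts had 0.5 added to each count for the log2 scale and went into two-sided exact permutation tests, adjusted over 9 tests. Intervals are 95% intervals from the test statistic. Replicates differed by more than sampling noise, most of all IMQ + H2O replicate 3. Its chi-square per gene was 83.4 against replicate 1 and 78.6 against replicate 2, where replicates 1 and 2 of that group gave 26.3. Positions and exon lengths are from GENCODE release M21. The fit was tested on simulated data: of 200 genes changed 4-fold among 18009 in IMQ + H2O against VAS + H2O, edgeR recovered 75% with 4 false calls, and DESeq2 1.42.0 recovered 88% with 36. With no gene changed, edgeR made 0 false calls and DESeq2 made 19. Changes smaller than 4-fold were not simulated, so the recovery of such changes is not known.

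The 10 genes and all lists were chosen with earlier results of these data known. Named are all 10 genes, the pathway genes called in any comparison, and the 2 genes nearest in pattern to each called member. Pla2g4f and Ptgfr were named after their values were seen. Alternatives were DESeq2, RLE size factors, a minimum of 10 counts per library or no filter, 1 fit over all 9 libraries, a replicate block, the adjusted p alone, a covariate of dermal fibroblast and cartilage markers, 3 counts added to ratios, and leaving out each library.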

Additional observations from a re-analysis of the deposited data

How the results depend on the processing

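Ptges and Pla2g4e stayed called under imiquimod in every alternative run except the covariate. With the score of dermal fibroblast and cartilage markers as a covariate, 0 of 18009 genes were called in IMQ + H2O against VAS + H2O, so 0 members and 0 pathway genes, while Ptges had a log2 fold change of 1.93 (adjusted p = 0.125 by edgeR) and Pla2g4e 2.44 (adjusted p = 0.188 by edgeR). The score differs between these groups, so it and the treatment cannot be told apart in that fit. By the adjusted p alone, 14 pathway genes passed under imiquimod and 16 in IMQ + XYF against VAS + H2O. DESeq2 called 1 pathway gene with XYF added. Ptgs2 in IMQ + XYF against VAS + H2O lost its call with no low-count filter (adjusted p = 0.052 by edgeR), with all 9 libraries in 1 fit (0.101) and with the covariate (0.0552). Hpgd under imiquimod reached the fold threshold with no low-count filter and in 3 of 6 fits that left out 1 library.

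Signs turned only in differences that were called in neither setting. The covariate gave -0.13 for Ptgs1 under imiquimod, and with XYF added -0.57 for Ptger4, 0.14 for Pla2g4d and 0.15 for Pla2g4e. Ptger4 in IMQ + XYF against VAS + H2O was 0.0013 with no filter and 0.0040 with at least 10 counts in every library. With each library left out in turn, Pla2g2f under imiquimod ranged from -0.17 to 0.12. With XYF added, Ptgs1 ranged from -0.0223 to 0.0865, Ptgs2 from -0.90 to 0.59, Ptges from -0.12 to 0.0229, Pla2g4e from -0.38 to 0.026, Pla2g2f from -0.28 to 0.045 and the log2 ratio of Ptgs2 to Ptgs1 from -0.639 to 0.512. In IMQ + XYF against VAS + H2O, Ptger4 ranged from -0.10 to 0.13 and Pla2g4a from -0.10 to 0.0837. Over the fits that left out 1 library, the pathway count under imiquimod ranged from 5 to 8.

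The replicate numbers did not pair the samples: same-numbered libraries correlated at -0.13 to 0.11. With the replicate number as a block, Ptgs2 was called under imiquimod (log2 fold change 1.68, adjusted p = 0.0272 by edgeR) and not in IMQ + XYF against VAS + H2O (1.49, adjusted p = 0.133 by edgeR), and no other call of the 10 genes changed. Over all genes the calls went from 1383 to 1100, from 5 to 0 and from 1371 to 1113. The lowest counts of the 10 genes were those of Pla2g4d (50 to 247 a library) and Ptger3 (63 to 214), and 3 libraries a group limit every test.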
